A study of Mus musculus with 6 samples.

Results

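The genes described here are 32 enzymes, carriers and regulators of fatty acid and triglyceride synthesis, taken by name from a table of 49585 mouse genes. They were listed by what their products do. By role they are 3 regulators, 4 genes of de novo synthesis, 7 of elongation and desaturation, 8 of uptake and activation and 10 of glycerolipid assembly. Each was read in 6 polyA RNA-seq libraries of AML12, an immortalised mouse hepatocyte line. The cells were transfected with a construct for over-expression of either the Zac1 open reading frame (3 libraries, numbered 4, 5 and 6) or that of EGFP, a fluorescent protein (3 libraries, numbered 1, 2 and 3), and RNA was taken 24 h later. Zac1, a transcription factor with zinc fingers, is the product of Plagl1, an imprinted gene, and the series title ties it to fatty liver disease in young animals. The sources used here do not give the promoter of the constructs or the share of cells that took them up, so each value is an average over whole cultures. In such bulk RNA, fewer cells with a transcript and less of it per cell cannot be told apart. Whether the libraries of a group stem from separate cultures is not stated; the p-values therefore measure the spread between these samples, and that spread may be technical only.

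In de novo lipogenesis, cytosolic citrate is split to acetyl-CoA, which is carboxylated to malonyl-CoA and built into palmitate by fatty acid synthase with NADPH. Elongases and desaturases then turn palmitate, or fatty acids taken up from outside and activated to acyl-CoA, into longer and unsaturated chains. Acyl groups are joined to glycerol 3-phosphate in sequence, a phosphate is removed, and a last acyl transfer gives triglyceride. In liver, SREBP-1c (from Srebf1) and ChREBP (from Mlxipl) are known as the transcription factors that raise these genes after insulin and glucose, and an excess of the pathway is a known feature of fatty liver.

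The promoter windows of 4 start sites are shown because they belong to the enzyme at the centre of the pathway and to the member genes with the letters of a sterol regulatory element (SRE), the site that SREBP factors bind. Each line holds the 250 bases before a RefSeq start site (GRCm38.p6), 5′ to 3′ on the strand of the gene. Capitals mark every match on either strand to the SRE (TCACNCCAC), the E-box (CACGTG), the CCAAT box (CCAAT) or the Zac1 site (GGGGCCCC), where capitals that run together can hold more than 1 match.
Fasn, chr11:120824548-120824797, minus strand: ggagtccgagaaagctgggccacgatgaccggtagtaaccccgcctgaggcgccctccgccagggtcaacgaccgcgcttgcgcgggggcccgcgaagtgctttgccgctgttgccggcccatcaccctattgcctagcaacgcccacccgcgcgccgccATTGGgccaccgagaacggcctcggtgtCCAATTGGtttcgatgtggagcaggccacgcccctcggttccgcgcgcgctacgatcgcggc
Mlxipl, first start site, chr5:135089640-135089889, plus strand: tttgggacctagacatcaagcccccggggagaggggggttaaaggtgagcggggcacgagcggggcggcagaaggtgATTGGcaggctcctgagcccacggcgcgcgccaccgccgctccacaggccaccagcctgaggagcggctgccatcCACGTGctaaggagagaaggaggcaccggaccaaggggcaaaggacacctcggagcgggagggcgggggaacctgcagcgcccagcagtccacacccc
Mlxipl, second start site, chr5:135106641-135106890, plus strand: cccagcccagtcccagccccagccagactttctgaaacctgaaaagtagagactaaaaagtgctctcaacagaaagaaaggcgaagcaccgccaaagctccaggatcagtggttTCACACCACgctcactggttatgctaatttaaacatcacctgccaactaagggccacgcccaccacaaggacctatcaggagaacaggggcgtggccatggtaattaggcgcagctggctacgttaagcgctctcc
Acsl1, second start site, chr8:46490716-46490965, plus strand: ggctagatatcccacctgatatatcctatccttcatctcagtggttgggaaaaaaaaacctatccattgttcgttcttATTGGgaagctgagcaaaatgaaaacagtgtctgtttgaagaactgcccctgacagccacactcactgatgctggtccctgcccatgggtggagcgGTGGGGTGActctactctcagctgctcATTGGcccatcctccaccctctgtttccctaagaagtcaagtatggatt
The Fasn window holds 3 CCAAT boxes, of which 2 run together, and no SRE of these letters. The windows of Mlxipl hold a CCAAT box and an E-box at the first start site and an SRE, TCACACCAC, 136 to 128 bases before the second. Acsl1 has GTGGGGTGA, an SRE on the opposite strand, 76 to 68 bases before its second start site, and 2 CCAAT boxes on that strand. Windows were found for 27 of the 32 members; Fads1, Scd1, Scd2, Lpl and Dgat1 have none here. A gene was counted if any of its windows held the letters, so genes with more start sites had more chances of a match. The SRE was in 2 of those 27 genes and in 1.22% of 27025 genes with a window. The E-box was in 4 (Mlxipl, Elovl5, Slc27a1 and Lpin2) against 6.86% of all, and the CCAAT box in 17 against 37.5%. The Zac1 site was in 0 of the 27 and in 1.03% of all genes. These matches are a description of letters in short windows, not of binding.

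Totals ran from 14801240 to 15145092 reads in EGFP and from 16104498 to 18302538 in Zac1. Plagl1 went from 4.14 ± 1.39 to 7538 ± 811 CPM (SD, n = 3), in the direction of the labels. CPM, the usual depth-scaled count, is a count divided by the library total in megareads after TMM scaling. The second principal component, with 20.2% of the variance, placed EGFP 1 (10.6) and Zac1 4 (11.5) apart from the other 4 libraries (-8.68 to -2.46). Results are therefore also given without these libraries. Of 15 hepatocyte markers 11 were tested; Apob was at 1356 ± 150 CPM and Alb at 34.7 ± 1.18 CPM in EGFP, and Apoa2 had 0 reads in every library. Of 6 cholangiocyte markers, Spp1 (310.4 ± 1.29 CPM), Krt19 (258 ± 18.1 CPM), Sox9 and Krt7 were well above 0 in EGFP, Cftr was low (4.81 ± 0.850 CPM) and Epcam had at most 2 reads in any library. The summed level of 8 adipocyte markers was 14.7 to 15.9 CPM in EGFP and 17.7 to 19.7 CPM in Zac1, nearly all of it Pparg. Adipoq had 7 reads in all libraries together, and Lep and Cfd had 0.

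None of the members passed the test for a difference between Zac1 and EGFP cells. Of the 32, 27 reached the mean count of 10 needed for testing; 0 were higher and 0 lower, with edgeR's quasi-likelihood test and Benjamini-Hochberg adjustment over all 12130 tested genes, where 3.78% were called (3.12% higher, 0.668% lower). DESeq2 and limma-trend also called 0 members, where they called 3.53% and 3.69% of all genes. At an unadjusted p under 0.05 there were 3 members, Lpl, Me1 and Acsl1, against 15.8% of all tested genes. The log2 fold changes of the 27 ran from -0.20 (Scd2) to 0.37 (Lpin3), 13 above 0 and 14 below, with a median of -0.001; the median of all tested genes was -0.002. The groups did not overlap for 4 members (Acsl1, Lpin1 and Lpin3 above EGFP in every Zac1 library, Lpl below), against 20.6% of all tested genes.

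Most members could be bounded within the spread between these samples. The intervals rest on the same spread as the p-values, which may be technical only. For 26 of the 27 the 95% interval of the fold change lay within 1.5-fold in either direction (81.1% of all tested genes). The exception was Lpin3, with 30.7 reads per library on average and an interval from 0.919-fold to 1.81-fold. Without Zac1 4, Scd2 and Acsl4 passed as lower, where 7.95% of all genes were called (3.13% lower). Without EGFP 1 and Zac1 4 together Scd2, Acsl4 and Lpl passed as lower, where 12.0% of all genes were called (4.99% lower). That last fit leaned almost fully on the variance of other genes (1563 prior degrees of freedom, against 10.02 with all libraries). Scd2 also passed as lower with no filter on low counts (adjusted p = 0.00233), where 4.5% of all genes were called (1.14% lower).

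**Figure D1:**
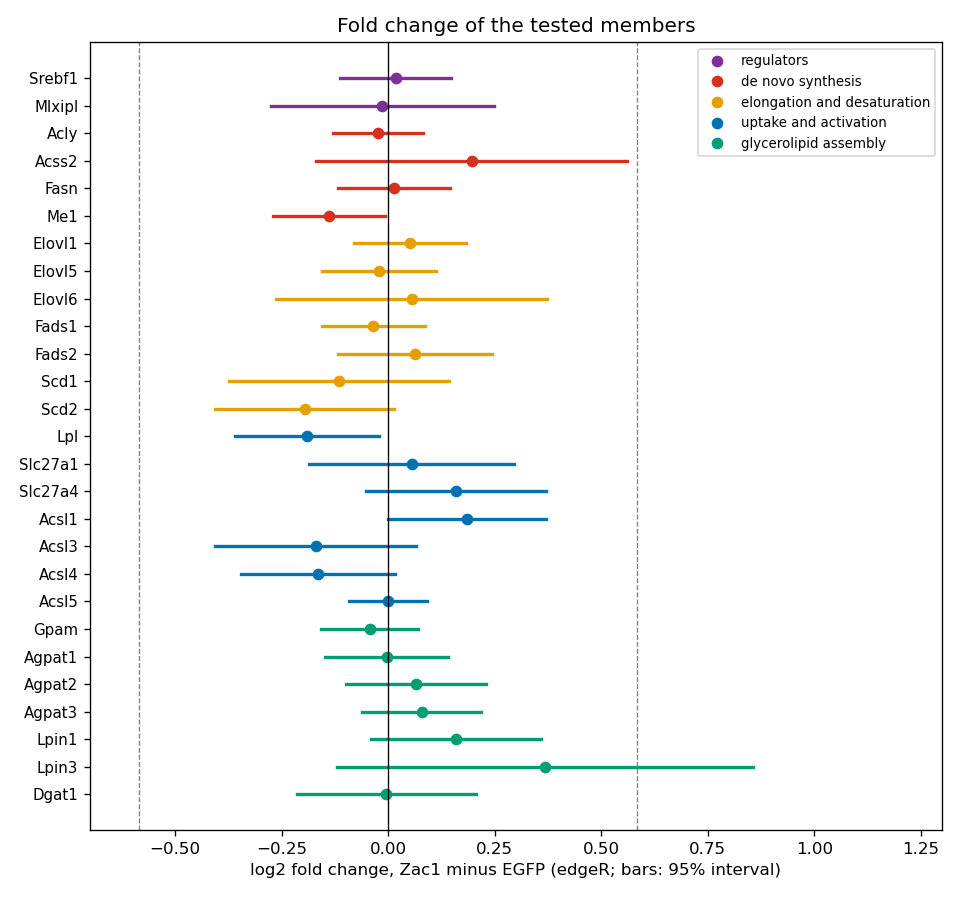
Log2 fold change of each tested member, Zac1 minus EGFP, with its 95% interval from edgeR (3 libraries per group) on the horizontal axis; colours are roles and dashed lines mark 1.5-fold. Every point lies between -0.20 and 0.37, and only the interval of Lpin3 crosses a dashed line.

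Among the regulators, Srebf1, which encodes the SREBP-1 factors (GRCm38 chromosome 11, 60199089 to 60222581, minus strand), was at 181, 169 and 153 CPM in EGFP 1 to 3 and 167, 174 and 169 CPM in Zac1 4 to 6. The Zac1 values lay inside the EGFP range. Its log2 fold change was 0.02 (SE 0.06, edgeR adjusted p = 0.930, 95% interval 0.925-fold to 1.11-fold). Mlxipl, which encodes the glucose-responsive factor ChREBP (chromosome 5, 135089890 to 135138382, plus strand), was at 7.79, 9.0 and 9.32 CPM in EGFP and 8.16, 8.75 and 8.92 CPM in Zac1. The groups overlapped here too (log2 fold change -0.01, SE 0.12, adjusted p = 0.973). As CPM per kilobase of exon (RPKM), Srebf1 was at 29.8 ± 2.5 RPKM in EGFP and Mlxipl at 1.57 ± 0.146 RPKM. Thrsp, a lipogenic protein induced by thyroid hormone, had 3, 5 and 3 reads in EGFP and 8, 4 and 2 in Zac1, and was not tested.

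Transcripts of the de novo synthesis members were abundant in both groups, apart from Acss2. Fasn, the fatty acid synthase (chromosome 11, 120805846 to 120824547, minus strand; its promoter is printed above), was at 480, 421 and 400 CPM in EGFP and 448, 437 and 429 CPM in Zac1. Zac1 values again fell within the EGFP range (log2 fold change 0.01, SE 0.06, adjusted p = 0.946, interval 0.921-fold to 1.11-fold). Acly, which splits citrate to acetyl-CoA (chromosome 11, 100476353 to 100528000, minus strand), was at 314, 301 and 290 CPM in EGFP and 304, 288 and 298 CPM in Zac1 (-0.02, SE 0.05, adjusted p = 0.863). Me1, the cytosolic malic enzyme that yields NADPH, had the highest level per kilobase among the member genes of this role, 107 ± 8.71 RPKM in EGFP. Its CPM were 452, 390 and 398 in EGFP and 399, 365 and 362 in Zac1, so that Zac1 4 lay above EGFP 2 and EGFP 3. Its log2 fold change was -0.14 (SE 0.06, unadjusted p = 0.0388, adjusted p = 0.280), and -0.07 without EGFP 1. Acss2, which makes acetyl-CoA from acetate, was low, with 3.82 ± 0.338 CPM in EGFP and 4.39 ± 0.504 CPM in Zac1 (0.20, adjusted p = 0.627).

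**Figure D2:**
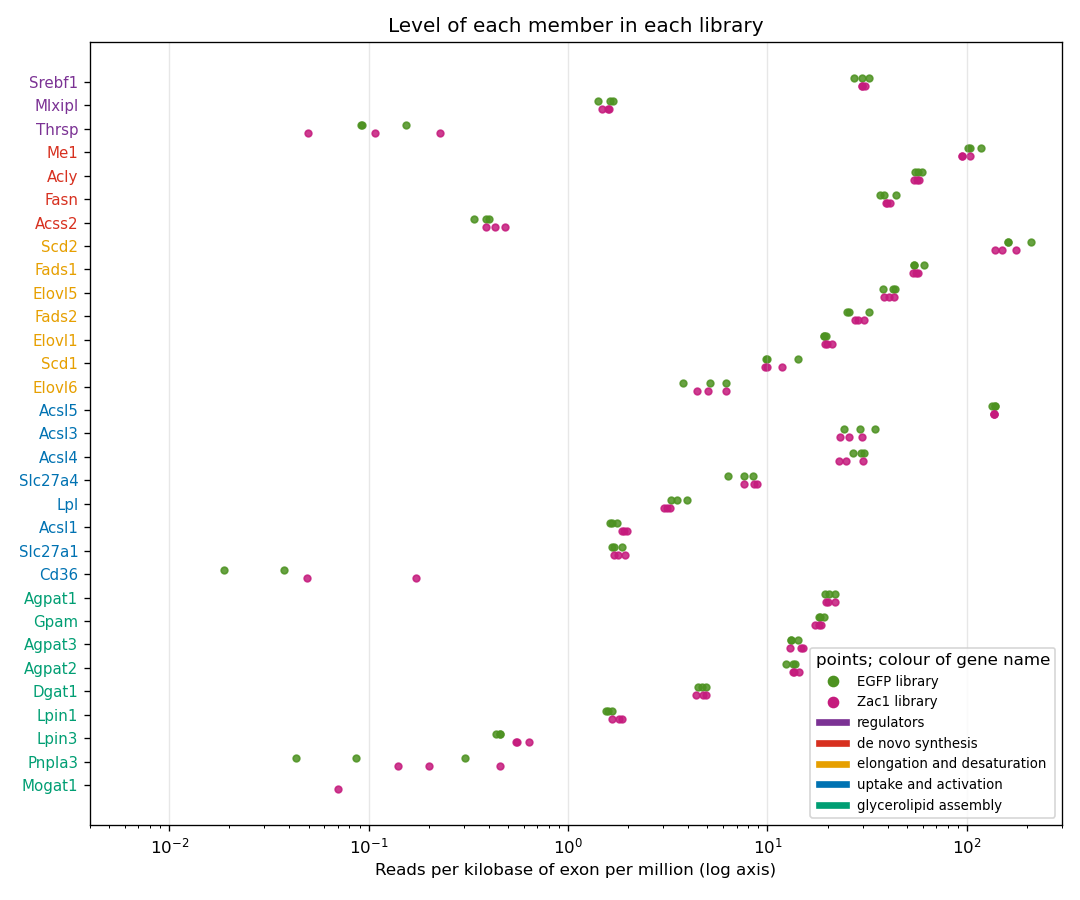
RPKM on a log axis for the members with any reads, 1 point per library, EGFP in green and Zac1 in magenta; gene names are coloured by role and libraries with 0 reads have no point. Scd2, Acsl5 and Me1 were at the top, Lpin3 and Acss2 were the tested members under 1, and the green and magenta points of most members overlap.

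In elongation and desaturation, 0 of 7 genes passed. Scd2 and Scd1 encode stearoyl-CoA desaturases, which place the first double bond, and lie 87590 bases apart on chromosome 19 (Scd2 at 44293674 to 44306864, plus strand; Scd1 at 44394455 to 44407879, minus strand). Scd2 was at 1150, 880 and 880 CPM in EGFP and 965, 819 and 758 CPM in Zac1. EGFP 1 and Zac1 4 were the high libraries of their groups, and Zac1 4 lay above EGFP 2 and 3. The log2 fold change was -0.20 (SE 0.10, adjusted p = 0.354, interval 0.755-fold to 1.01-fold). It was -0.30 without Zac1 4 (adjusted p = 0.0294) and -0.05 without EGFP 1. Scd1, the isoform best known from liver, was at 69.3, 48.8 and 48.2 CPM in EGFP and 57.7, 48.4 and 47.6 CPM in Zac1, with the same high libraries (-0.12, SE 0.12, adjusted p = 0.696).

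Of the summed length-scaled level of the 4 Scd genes, Scd2 made up 94.0 ± 0.280% in EGFP and 93.6 ± 0.233% in Zac1, and Scd1 5.97 ± 0.299% and 6.34 ± 0.190%. These genes are close paralogs, and how reads that match several were counted is not stated, so their split is uncertain. Among the elongases, Elovl5, which lengthens polyunsaturated chains, took 57.7 ± 0.977% of the family's level in EGFP and 56.5 ± 1.12% in Zac1. Elovl6, which lengthens palmitate, took 6.98 ± 1.31% and 7.25 ± 1.05%. Elovl6 had the largest spread relative to its mean of the tested members, with an SD of 24.0% of the mean in EGFP and 17.3% in Zac1, at 39.7, 24.2 and 33.0 CPM in EGFP and 40.1, 32.4 and 28.6 CPM in Zac1 (0.06, SE 0.15, adjusted p = 0.9). Fads1 and Fads2, the front-end desaturases of polyunsaturated fatty acids, were at -0.03 and 0.06 on the log2 scale (adjusted p = 0.821 and 0.776), and Elovl1, an elongase of very long chains, at 0.05 (adjusted p = 0.742).

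For uptake and activation, 0 of 7 tested genes passed. Acsl5, a long-chain acyl-CoA synthetase (chromosome 19, 55251938 to 55297720, plus strand), had the highest RPKM among the member genes of this role, 137 ± 2.39 in EGFP and 137 ± 0.390 in Zac1. The spread of its CPM between Zac1 libraries was 0.284% of the mean. It was at 654, 670 and 676 CPM in EGFP and 667, 668 and 664 CPM in Zac1 (log2 fold change -0.001, SE 0.04, adjusted p = 0.993, interval 0.938-fold to 1.06-fold). It took 69.6 ± 2.80% of the length-scaled level of the Acsl family in EGFP and 71.8 ± 2.59% in Zac1. Of its exons, 404 bases overlap Zdhhc6 on the opposite strand, and whether reads were counted by strand is not stated. Exons of Acss2, Agpat1, Agpat2, Elovl1, Mogat1 and Srebf1 also overlap another protein-coding gene on the opposite strand. Acsl3 shares 244 exon bases with Utp14b on the same strand.

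Acsl1, known as a main acyl-CoA synthetase of liver, was at 18.5, 17.1 and 17.4 CPM in EGFP and 19.6, 19.9 and 20.8 CPM in Zac1. Each Zac1 library lay above each EGFP library (0.19, SE 0.09, unadjusted p = 0.0497, adjusted p = 0.315). Acsl1 is thus a minor part of the family here, with a share of 0.855 ± 0.0213% in EGFP and 1.01 ± 0.0682% in Zac1. Acsl3, tied to lipid droplets, and Acsl4, which prefers arachidonate, were at -0.17 and -0.16 on the log2 scale (adjusted p = 0.491 and 0.368). For Acsl3 it was -0.03 without EGFP 1 and -0.27 without Zac1 4. Acsl4 was at 165, 145 and 159 CPM in EGFP and 162, 133 and 123 CPM in Zac1, with Zac1 4 inside the EGFP range. Without Zac1 4 its log2 fold change was -0.28 (adjusted p = 0.00787). With each library left out in turn, the value for Acsl4 ran from -0.28 to -0.08.

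Lpl, the lipase that frees fatty acids from circulating triglyceride (chromosome 8, 68880491 to 68907448, plus strand), was at 34.4, 41.2 and 37.0 CPM in EGFP and 34.1, 32.8 and 31.8 CPM in Zac1. Each Zac1 library lay below each EGFP library, with EGFP 1 and Zac1 4 the nearest. The log2 fold change was -0.19 (SE 0.08, unadjusted p = 0.0300, adjusted p = 0.247). The fatty acid transport proteins Slc27a4 (0.16, adjusted p = 0.465) and Slc27a1 (0.05, adjusted p = 0.862) overlapped between the groups. Cd36, a fatty acid receptor and carrier, had 0, 2 and 1 reads in EGFP and 10, 3 and 0 in Zac1, too few to test.

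In glycerolipid assembly, 0 of 7 tested genes passed and 3 were not tested. Gpam, the mitochondrial acyltransferase that starts the chain (chromosome 19, 55067268 to 55127238, minus strand), was at 127, 122 and 121 CPM in EGFP and 124, 115 and 121 CPM in Zac1 (-0.04, SE 0.05, adjusted p = 0.747). The next step is made by AGPAT enzymes, of which Agpat1 had the highest level per kilobase among the member genes of this role, 20.6 ± 1.28 RPKM in EGFP. Its CPM were 58.2, 61.4 and 65.8 in EGFP and 59.1, 65.4 and 60.4 in Zac1, with overlapping ranges (-0.003, SE 0.07, adjusted p = 0.989). Agpat2 and Agpat3 were at 0.07 and 0.08 (adjusted p = 0.739 and 0.605). Dgat1, which makes the last acyl transfer to triglyceride (chromosome 15, 76502015 to 76511953, minus strand), was at 14.3, 13.8 and 15.1 CPM in EGFP and 13.5, 14.5 and 15.1 CPM in Zac1 (-0.004, SE 0.10, adjusted p = 0.989, interval 0.862-fold to 1.15-fold).

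The lipins remove the phosphate before that last step. Lpin1 was at 15.0, 15.2 and 16 CPM in EGFP and 16.1, 17.3 and 18.1 CPM in Zac1, and Lpin3 at 1.60, 1.68 and 1.69 CPM and 2.06, 2.35 and 2.01 CPM. For both, every Zac1 library was above every EGFP library, but neither passed (0.16, SE 0.09, adjusted p = 0.440, and 0.37, SE 0.23, adjusted p = 0.468). Lpin2 was listed at 0 reads in all 6 libraries, which allows up to 0.0312 CPM for counting error only. The annotation the authors counted with is not known here. Mogat1, a monoacylglycerol acyltransferase, had 0 reads in EGFP and 0, 0 and 2 in Zac1, and Pnpla3, a lipid droplet acylhydrolase, 1, 2 and 7 in EGFP and 5, 12 and 4 in Zac1.

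A set of these genes differed between libraries of the same group. EGFP 1 was the highest EGFP library and Zac1 4 the highest Zac1 library for 13 of the 27 tested members, against 20.3% of all tested genes. These were 3 of 4 genes of de novo synthesis (Fasn, Acly and Me1), 6 of 7 of elongation and desaturation (all but Elovl1), 3 of 7 of uptake and activation (Acsl3, Acsl4 and Slc27a4) and Gpam. Both libraries were lowest for 6 members (Mlxipl, Elovl1, Slc27a1, Agpat1, Agpat3 and Lpin1), against 22.3% of all. Scd1 was 1.43 times as high in EGFP 1 as in the mean of EGFP 2 and 3, and 1.20 times as high in Zac1 4 as in the mean of Zac1 5 and 6. The same ratios were 1.39 and 1.31 for Elovl6, 1.31 and 1.22 for Scd2, 1.3 and 1.23 for Acsl3, and 1.17 and 1.04 for Fasn. Over the 7 elongation and desaturation genes their medians were 1.27 and 1.10, and over all tested genes 0.995 and 0.992. Of 52 other genes of the pathway that were tested, both libraries were highest for 20 and lowest for 13; among the 15 regulators of that list they were highest for 4 and lowest for 8. This pattern was noticed in these data and has no test. No label marks these libraries as a batch.

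**Figure D3:**
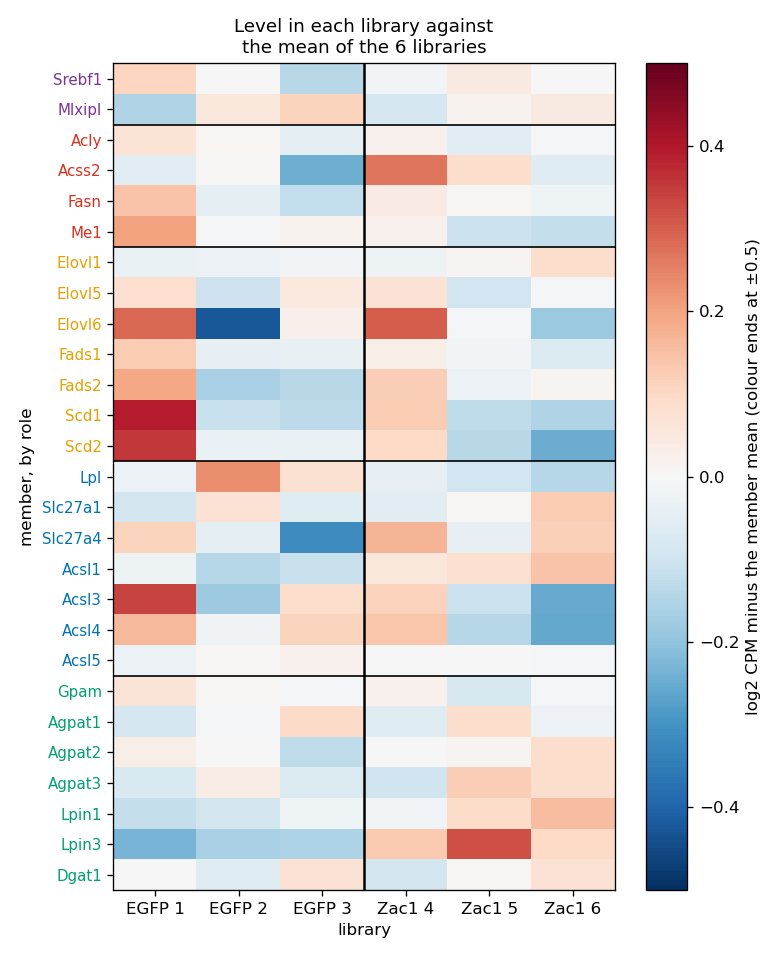
Colour gives log2 CPM of each tested member in each library minus its mean over the 6 libraries, with members in rows by role and libraries in columns; the vertical line parts EGFP from Zac1. Scd1, Scd2, Elovl6 and Acsl3 are darkest red in EGFP 1 or Zac1 4, and Lpin1, Lpin3 and Acsl1 turn from blue to red, or near white, across the vertical line.

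**Figure D4:**
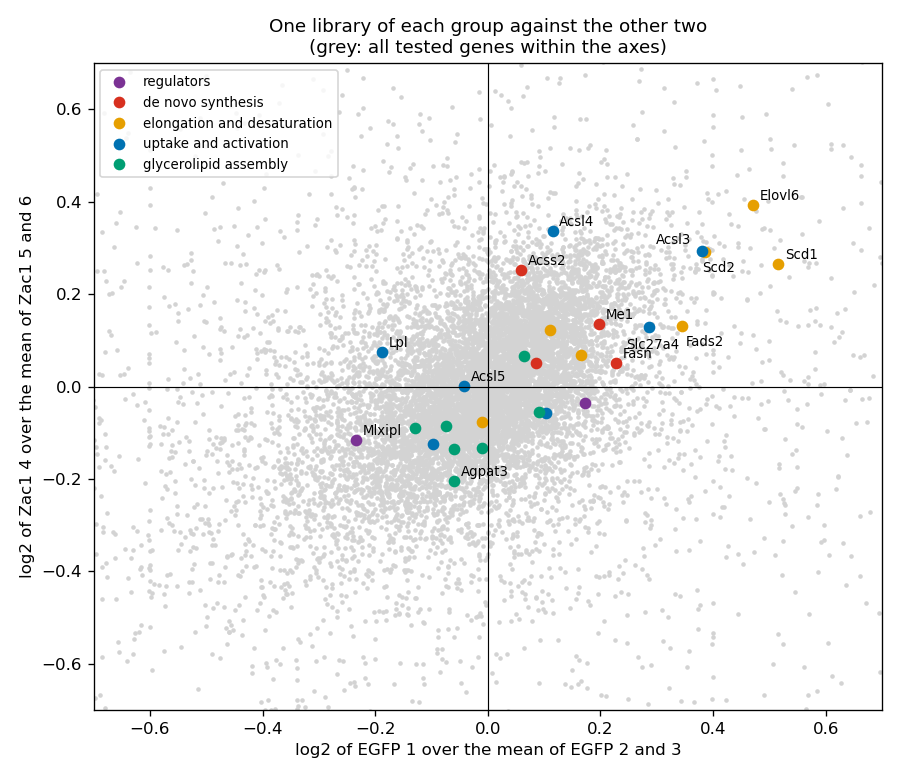
Each coloured point is a tested member, with log2 of EGFP 1 over the mean of EGFP 2 and 3 on the horizontal axis and log2 of Zac1 4 over the mean of Zac1 5 and 6 on the vertical axis; grey points are all tested genes. Elovl6, Scd1, Scd2 and Acsl3 lie far up and right, Mlxipl and Agpat3 lie down and left, and Acsl5 is near the centre.

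Another 67 genes of the same 5 roles were listed by what they do, and 52 were tested. Of these 1 was higher and 0 were lower, against 3.12% and 0.668% of all tested genes. The gene that passed was Acacb, the acetyl-CoA carboxylase placed at mitochondria, at 0.799, 0.336 and 0.203 CPM in EGFP and 1.43, 3.23 and 1.85 CPM in Zac1 (log2 fold change 2.26, SE 0.45, adjusted p = 0.0102). Acacb had only 12, 5 and 3 reads in EGFP and 23, 55 and 34 in Zac1. It thus reached the mean count of 10 over the 6 libraries only through the Zac1 group. It did not pass without EGFP 3 (adjusted p = 0.0861) or without Zac1 5 (0.0592). Acaca, the cytosolic carboxylase that feeds Fasn, made up 99.4 ± 0.377% of the length-scaled level of the pair in EGFP and 97.1 ± 1.22% in Zac1, and was at 0.03 (adjusted p = 0.870). By role, 0 of 15 regulators, 1 of 10 genes of de novo synthesis, 0 of 7 of elongation and desaturation, 0 of 7 of uptake and activation and 0 of 13 of glycerolipid assembly passed. Their median log2 fold change was -0.03. Dgat2, the other triglyceride-forming enzyme, was at 0.12 (adjusted p = 0.643), and Gpat4, the more abundant starting acyltransferase with 64.4 ± 0.222% of its family in EGFP, at -0.03 (adjusted p = 0.821). The cytosolic dehydrogenases Mdh1 (-0.18, adjusted p = 0.0574) and Idh1 (-0.37, adjusted p = 0.0781) and the adipogenic receptor Pparg (0.30, adjusted p = 0.103) were next by p, and none of them passed. Mdh1 and Idh1 passed as lower with DESeq2 (0.0455 and 0.0251) and without Zac1 4 (0.0166 and 0.00115). Of all genes, 3.53% were called with DESeq2 and 7.95% without Zac1 4. With GC offsets Mdh1 passed (adjusted p = 0.0303) and so did the regulator Nr1h2, an oxysterol receptor, at -0.20 (adjusted p = 0.0402), against -0.09 (adjusted p = 0.480) without them. Those offsets gave 461 calls among 12116 genes of the whole table.

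GC content of the transcript moved with the fold change, in the members and in all genes. Across the 27 members Spearman's rho of the log2 fold change with GC content was 0.41, and across all tested genes 0.395; genes share these 6 libraries and are not independent replicates. GC content ran from 39.0% (Acsl4) to 59.0% (Agpat1), with a median of 52.1% against 49.4% over all tested genes. With offsets that remove a GC curve from each library, 0 members passed and the median of the 27 was -0.04. Srebf1 was then at -0.07, Fasn at -0.06, Scd2 at -0.20, Lpl at -0.14 and Acsl1 at 0.23. Acsl4, the tested member of lowest GC content, went from -0.16 to -0.08, and Acsl3 from -0.17 to -0.12. The part of GC content in the member values was not tested further.

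**Figure D5:**
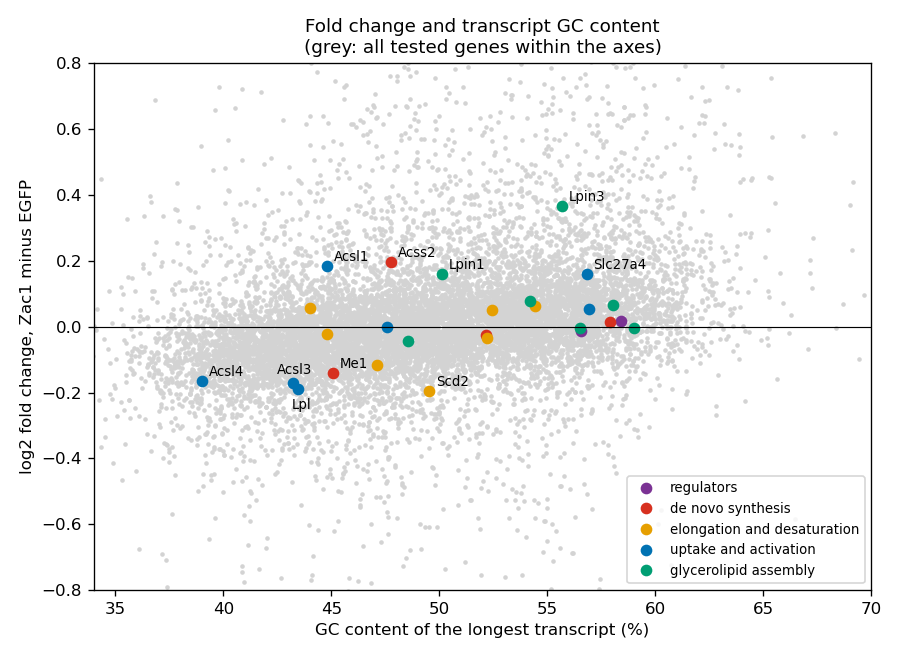
Log2 fold change, Zac1 minus EGFP, against the GC content of the longest transcript; coloured points are the tested members by role and grey points all tested genes. Acsl4, Acsl3, Lpl and Me1, at 39.0% to 45.1% GC, lie below 0, while Acsl1 and Elovl6, in the same range of GC, and Slc27a4 and Lpin3, at 56.8% and 55.7%, lie above.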

How the data were processed

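PolyA RNA-seq libraries of transfected AML12 cells were analysed from the 1 table of read counts per gene that the authors deposited. The submitters' processing notes name DESeq2, HTSeq, STAR and FastQC. Their versions and settings, the build, the annotation and the strand setting were not given in the sources used here. The kit was directional, per the labels' protocols. The deposit is called normalized, but its values are whole, differ in total and have median-of-ratios factors from 0.928 to 1.16, so they were used as counts.

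Symbols came from GENCODE M21 and matched 49326 of 49585 IDs, with all 32 members found. RPKM were computed here as CPM per kilobase of exon. Coordinates, exon lengths (union of exons) and GC content (longest transcript) are from GENCODE M21 (GRCm38). Testing covered genes whose mean count was 10 or more, with edgeR 4.0.16 in R 4.3.3 (TMM scaling, quasi-likelihood, prior count 0.125, two-sided), Benjamini-Hochberg threshold 0.05. SE is the size of the log2 fold change over the square root of F, and 95% intervals use the same SE. The fit was run on simulated counts with known fold changes, drawn independently for each gene. That simulation held no shift shared by EGFP 1 and Zac1 4, and its recovery is not reported here. Replicate pairs differed by more than sampling noise (chi-square per degree of freedom 2.31 to 8.98). Alternatives were DESeq2 1.42.0, limma 3.58.1 (trend, log2(CPM + 1)), other scalings, filters and variance settings, GC offsets (robust loess) and leaving out libraries. Members, lists and alternatives were chosen with earlier results of these data known.

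All members are accounted for. Values per library are given for those with an unadjusted p under 0.05, the highest member per kilobase of each role, and Srebf1, Mlxipl, Acly, Fasn, Scd1, Scd2, Gpam and Dgat1; Elovl6, Acsl4, Lpin1 and Lpin3 were added after their values were seen. Of the other pathway genes, the 1 past the test is named; all others named there were added after their values were seen. RefSeq (GRCm38.p6) promoter windows were searched for exact letters on both strands.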

Additional observations from a re-analysis of the deposited data

How the results depend on the processing

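The count of members past the test was 0 under 13 of 16 alternatives. It was 1 with no filter on low counts (Scd2, lower), 3 without EGFP 1 and Zac1 4 together, and 0 to 2 with each library left out in turn. The fits with no filter and without both libraries took nearly all of their variance estimate from other genes. Other pathway genes past the test numbered 5 with no filter, 0 with a mean count of at least 50 (which drops Acacb), 3 with GC offsets, 3 with DESeq2, 4 without EGFP 1 and Zac1 4, and 0 to 3 with each library left out. All genes past the test numbered 979 of 21764 (4.5%) with no filter and 241 of 10340 with a mean count of at least 50. They numbered 461 of 12116 with GC offsets and 428 of 12130 (3.53%) with DESeq2. Without EGFP 1 and Zac1 4 there were 1461 of 12188 (12.0%). With each library left out they ran from 206 to 963 (963 without Zac1 4, 7.95%). No paired analysis was possible because the groups share no replicate numbers.

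Of 458 recomputed member fold changes, 412 kept their sign and side of the threshold, 40 changed sign and 6 passed only in the alternative; the smallest adjusted p among the 40 was 0.638. With GC offsets the other sign was taken by Srebf1 (-0.0653), Fasn (-0.0638), Elovl5 (0.0194), Slc27a1 (-0.0136), Acsl5 (0.0153) and Agpat2 (-0.0148). With upper-quartile scaling it was taken by Mlxipl (0.0017), Acsl5 (0.0144), Agpat1 (0.0126) and Dgat1 (0.0116), and with scaling to the total without Plagl1 by Mlxipl (0.0026), Acsl5 (0.0154), Agpat1 (0.0135) and Dgat1 (0.0123). With no filter it was taken by Acsl5 (0.0007), and without EGFP 1 and Zac1 4 by Fads1 (0.0037) and Dgat1 (0.0388). With each library left out in turn, the log2 fold change ran from -0.0475 to 0.0809 for Srebf1, -0.0841 to 0.0336 for Mlxipl, -0.0555 to 0.0086 for Acly, -0.0461 to 0.0967 for Fasn, -0.0764 to 0.0214 for Elovl5, -0.115 to 0.2334 for Elovl6, -0.0654 to 0.0263 for Fads1, -0.0007 to 0.1907 for Fads2, -0.2108 to 0.0812 for Scd1, -0.0114 to 0.0052 for Acsl5, -0.0461 to 0.0404 for Agpat1 and -0.0425 to 0.0378 for Dgat1. For these changes the cause was not tested. The 5 members under the count minimum have no test.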

Other observations

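A pair of pathway genes was listed at 0 reads in every EGFP library and had a few reads in each Zac1 library. They were picked after their values were seen and were below the count minimum of the test. Of the 21764 genes with a read in any library, 280 (1.29%) had 0 reads in each EGFP library and at least 1 in each Zac1 library, and 51 (0.234%) had at least 4 in each. Elovl4, the elongase of very long chain fatty acids of retina and skin, had 7, 4 and 13 reads in Zac1. Scaled for depth, that was 6.95 times a limit of 3 counts over the EGFP group. Acsl6, an acyl-CoA synthetase best known from brain, had 5, 4 and 6, or 4.34 times that limit. These ratios make no allowance for counting error in the Zac1 reads, so they are not lower bounds. Of the length-scaled level of its family in Zac1, Elovl4 made up 0.210 ± 0.108% and Acsl6 0.0154 ± 0.00269% (SD, n = 3), against 56.5 ± 1.12% for Elovl5 and 71.8 ± 2.59% for Acsl5.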
